A study of Mus musculus with 6 samples.

Results

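The 10 genes described here are the 5 NF-kB subunits (Nfkb1, Nfkb2, Rela, Relb, Rel), the nuclear co-factor Bcl3, the 3 inhibitors Nfkbia, Nfkbib and Nfkbie, and the signal terminator Tnfaip3, out of 21938 protein-coding genes. They were followed in H3K27ac ChIP-seq of whole mouse retina. Acetylation of lysine 27 on histone 3 marks active promoters and enhancers. The genes were listed by name, and the list was chosen from these data with the promoter peaks of Bcl3 already known. The lists in which the promoters were marked are therefore given as a description, without a test. Any sequence within 2.5 kb of a transcription start site (TSS) counted as promoter, and the gene body with 20 kb added at each end as the locus. In the 10 loci 49 of all 39942 merged peak regions were found.

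All samples came from WT mice that were 3 months old at the first pressure elevation. One eye was raised to 30 mmHg for 1 h, 4 times in all (4xIOP), the other eye was the untreated contralateral control, and tissue was taken at day 2 from the last elevation. There were 3 retinas per group, each with 1 peak list. A treatment text shared by the samples also describes injection of dasatinib or vehicle, which no label assigns to these retinas. Bulk retina mixes all retinal cells, so fewer cells of a type and less mark per cell cannot be told apart.

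The lists held 16195 to 36509 peaks, the largest number in control replicate 3, and marked 44.6% to 56.9% of coding promoters. The mean background was 87.4 to 173 fragments per 10 kb, with the shortest peak of each list (187 to 232 bp) taken as the fragment length. At the weakest peaks 9 to 12 fragments overlapped the summit, so a promoter without a peak lies below the detection limit of its list, which rises with the local background, and is not shown to lack the mark. In 4 of the 6 lists the name carried inside the list belongs to the opposite group. Control replicates 1 and 2 and 4xIOP replicate 3 carry 4X_IOP, and control replicate 3 and 4xIOP replicates 1 and 2 carry 4X_CTL. Groups follow the labels throughout, and every direction holds for the groups as labelled. Peak heights or fragments of the 10 genes are given for each list. Shares over all genes or regions and limma differences are given for the labelled groups only. As for the tissue, the rod genes Nrl and Gnat1 were marked in all 6 lists, as were 6 of 10 photoreceptor markers. The cone genes Opn1sw, Opn1mw and Arr3 were marked in none. Of the 12 microglial markers 11 were marked in no list (Cx3cr1, P2ry12 and Csf1r among them). All 8 markers of lymphocytes and granulocytes, and 5 of 7 of ganglion cells, were without a peak in any list. So were 6 of 8 of amacrine and horizontal cells, 5 of 9 of Muller glia and astrocytes and 1 of 7 of bipolar cells. The same held for 7 of 8 of endothelium and pericytes and 5 of 6 of pigment epithelium. Over all coding genes 39.5% were marked in all 6 lists and 42.4% in none.

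NF-kB is a family of dimeric transcription factors that drive inflammatory and survival genes. In resting cells the dimers are held in the cytoplasm by inhibitors of the IkB family, and cytokine or Toll-like receptors release them through kinases that lead the inhibitor to degradation. Rela, Rel and Relb carry activation domains, whereas Nfkb1 and Nfkb2 encode precursors that are processed to DNA-binding subunits without one. Bcl3 is an IkB-like protein that works in the nucleus on such subunits. Nfkbia and Tnfaip3 are textbook NF-kB targets that feed back on the pathway.

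The DNA of these promoters is shown first, because the pathway is known to act on its own genes through the kB motif. The 10-base NF-kB consensus was searched on both strands, overlapping matches counted once, in the RefSeq promoters of GRCm38.p6 (250 bases before the start to 50 after it). Of the 10 genes 8 had an entry. Nfkb1 and Relb had none. A match was present in 6 of these 8 genes (Bcl3, Nfkb2, Rel, Nfkbia, Nfkbie and Tnfaip3) and in 8 of their 11 windows, against 5.14% of all 27025 genes and 4.51% of all 32851 promoters of the table. The windows were not matched for base content. The median share of G and C bases was 64.7% in those of the 8 genes and 52.7% in the table. Rela and Nfkbib had no match in this window. A match describes the letters and is not a measured site. The matches are shown in 30 bases each, in the direction of the gene, with the motif in capitals and, before the colon, the position of its first capital from the RefSeq start.

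Bcl3, chr7:19822734-19822763, minus strand, position 3: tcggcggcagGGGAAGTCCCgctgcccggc
Tnfaip3, chr10:19015516-19015545, minus strand, position -125: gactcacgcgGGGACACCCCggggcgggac
Tnfaip3, chr10:19015403-19015432, minus strand, position -12: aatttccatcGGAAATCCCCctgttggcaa
Rel, chr11:23771042-23771071, minus strand, position -92: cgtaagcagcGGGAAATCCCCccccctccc
Nfkbia, chr12:55492657-55492686, minus strand, position -29: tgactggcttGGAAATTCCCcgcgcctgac
Nfkbie, chr17:45555584-45555613, plus strand, position -106: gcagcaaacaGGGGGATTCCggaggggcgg
Nfkb2, chr19:46304688-46304717, plus strand, position -39: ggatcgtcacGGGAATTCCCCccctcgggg
Nfkb2, chr19:46304716-46304745, plus strand, position -11: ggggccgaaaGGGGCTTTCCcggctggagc
Nfkb2, chr19:46305449-46305478, plus strand, position -236: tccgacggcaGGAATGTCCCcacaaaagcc
Nfkb2, chr19:46305695-46305724, plus strand, position 11: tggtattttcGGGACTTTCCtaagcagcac

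The whole promoter is shown for Bcl3, at chr7:19822706-19823005 on the minus strand, because its promoter was marked in some lists and not in others. It is followed by that of Nfkbia, at chr12:55492598-55492897 on the minus strand, because its acetylation was high in every list. Capitals mark the kB match.

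Bcl3: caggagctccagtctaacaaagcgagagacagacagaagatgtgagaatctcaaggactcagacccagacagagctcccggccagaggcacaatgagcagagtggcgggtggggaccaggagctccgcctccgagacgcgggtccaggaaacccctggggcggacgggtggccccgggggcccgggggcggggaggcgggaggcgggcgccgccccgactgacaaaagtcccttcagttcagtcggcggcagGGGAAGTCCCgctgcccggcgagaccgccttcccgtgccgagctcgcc
Nfkbia: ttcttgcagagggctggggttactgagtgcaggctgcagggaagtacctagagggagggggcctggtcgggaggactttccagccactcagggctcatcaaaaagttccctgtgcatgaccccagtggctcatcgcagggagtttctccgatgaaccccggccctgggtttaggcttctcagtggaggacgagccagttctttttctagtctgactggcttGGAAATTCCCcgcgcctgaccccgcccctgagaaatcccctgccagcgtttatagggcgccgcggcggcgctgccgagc

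The Bcl3 window held 26 CpG dinucleotides and the Nfkbia window 15. The 11 windows of the 8 genes ran from 6, at the second Tnfaip3 start, to 42 at Rel, and the median of all promoters of the table was 7.

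Across the 10 genes, 7 promoters were marked in all 6 lists (Nfkb1, Rela, Relb, Rel, Nfkbia, Nfkbib and Tnfaip3). The shares over all coding genes were 39.5% and, for genes marked in no list, 42.4%. Nfkbie was marked in 5 lists, Bcl3 in 3 and Nfkb2 in none. Each control list had 9, 8 and 8 of the 10 promoters marked, and each 4xIOP list had 8, 8 and 9. The means were 8.33 ± 0.58 in both groups (SD, n = 3). None of the 10 was marked in all lists of one group and none of the other, which 0.36% of coding promoters were towards control and 0% towards 4xIOP. These shares depend on single lists and on list length. The 79 and 0 promoters behind them became 277 towards control without control replicate 2, 36 towards 4xIOP without control replicate 3, and 50 and 16 with the same number of peaks in each list.

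**Figure D1:**
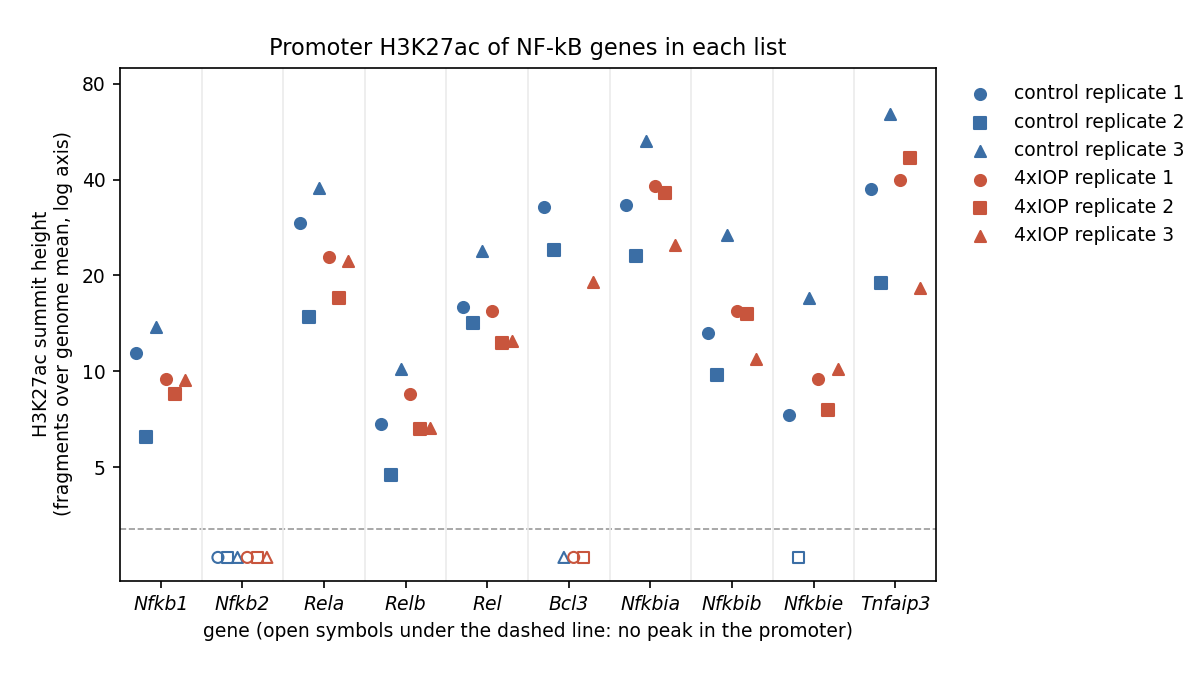
The height of the promoter peak of each gene, as fragments at the summit over the genome mean background of the list (log axis), is plotted for the 3 control (blue) and 3 4xIOP (red) lists, with open symbols below the dashed line where no peak was called. Tnfaip3 and Nfkbia were highest by the median over lists, Bcl3 was marked in 3 lists, and the groups overlapped for all 7 genes marked in every list.

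Heights below are the fragments at the summit divided by the genome mean background of the same list. By the median over lists the order was Tnfaip3 (38.6), Nfkbia (34.8), Bcl3 (24.0, over 3 lists), Rela (22.5), Rel (14.8), Nfkbib (14.2), Nfkbie (9.45, over 5 lists), Nfkb1 (9.40) and Relb (6.73). The ranges of neighbours in this order overlapped throughout. Tnfaip3 and Nfkbia stood above all subunits in this order, while Nfkbib and Nfkbie stood below Rela and Rel. The tallest subunit promoter was that of Rela.

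Among the activating subunits, Rela, the partner in the classical dimer, had summit heights of 29.2, 14.8 and 37.7 in the 3 controls, in replicate order, and of 22.9, 17.0 and 22.2 in the 3 4xIOP lists. The 4xIOP values lay inside the range of the control values. Rel, the subunit best known from lymphocytes, had 16.0, 14.2 and 23.9 in control and 15.4, 12.3 and 12.5 in 4xIOP. Control replicate 3 was the highest list for both genes. Relb, the subunit of the alternative pathway, was the lowest of the marked genes, with 15, 16 and 25 fragments at its summit in control and 17, 14 and 17 in 4xIOP. Relb remained marked in 2 lists when only peaks with a −log10 q of at least 5 were kept.

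Of the precursor subunits, Nfkb1 had a promoter peak at chr3:135690707-135691867 in every list and no other region in its locus, although the gene spans 106893 bp. Its heights were 11.4, 6.21 and 13.8 in control and 9.45, 8.48 and 9.35 in 4xIOP. Nfkb2 had no peak within 2.5 kb of any of its 4 start sites. It had 1 region of its own in all 6 lists, 3083 bp downstream of the nearest TSS and thus just outside the promoter limit, in an intron at chr19:46308779-46309219. This region held 32, 32 and 48 fragments in control and 26, 19 and 19 in 4xIOP. Raw fragments are not scaled to the background of a list. As heights the groups overlapped, from 9.47 to 19.4 in control and from 7.40 to 12.9 in 4xIOP. The farthest promoter region counted on the inside of the limit was 1768 bp upstream of Bcl3. Nfkb2 therefore combined 4 different matches of the kB motif with no promoter peak in these lists.

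Bcl3 was the gene of the 10 whose promoter was marked in 3 of the 6 lists. It was marked in control replicate 1 with 72 fragments at the tallest summit, in control replicate 2 with 81 and in 4xIOP replicate 3 with 49. It was not marked in control replicate 3 or in 4xIOP replicates 1 and 2. The 3 marked lists are those that carry the name 4X_IOP, and as labelled they are 2 control lists and 1 4xIOP list. The same 3 lists and no others marked 7 coding promoters, or 0.0319% of all.

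The mark at Bcl3 was not confined to the start site. In its locus 9 regions were called, from 9210 bp upstream to 32612 bp downstream of the TSS. Control replicate 1 held all 9 and control replicate 2 held 6. Control replicate 3 held 4 and 4xIOP replicate 3 held 5. In 4xIOP replicate 1 no region was called in the whole window, and in 4xIOP replicate 2 there was 1, the one 32612 bp downstream in an intron of Cblc, with 12 fragments. The called length in the locus was 4745, 3823 and 1333 bp in control and 0, 232 and 2433 bp in 4xIOP.

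**Figure D2:**
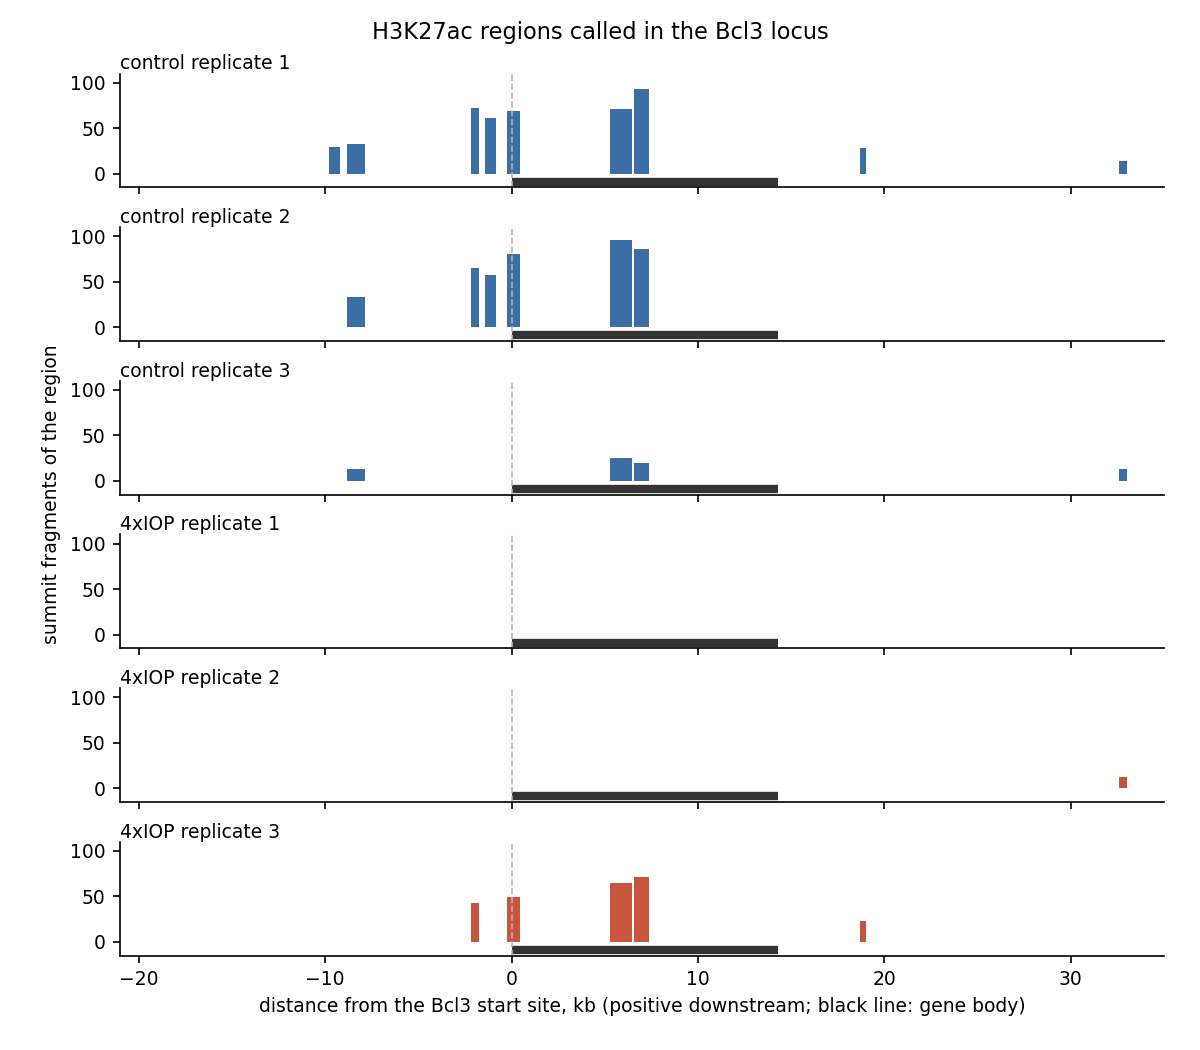
The regions called in the Bcl3 locus are drawn for each list against the distance from the start site in kb, with the height of a bar giving the fragments at the region's summit, controls in blue and 4xIOP in red. Control replicates 1 and 2 and 4xIOP replicate 3 show tall regions at the start site and in the gene body, control replicate 3 shows low ones in the gene body, and 4xIOP replicate 1 shows none.

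The tallest regions lay in the gene body. The region 5258 bp downstream of the start, chr7:19816301-19817512, held 71, 96 and 25 fragments in the 3 controls in order and 65 in 4xIOP replicate 3. The region 6575 bp downstream, chr7:19815413-19816195, held 93, 86 and 20 fragments in the controls and 71 in 4xIOP replicate 3. Neither was called in 4xIOP replicates 1 and 2. Both overlap the 2.5 kb around a start site of Gm16174, a gene that overlaps Bcl3, and an H3K27ac peak has no strand, so the mark at the 2 genes cannot be told apart. Control replicate 3 thus had the gene-body regions at a lower height, 10.1 and 8.10 times its genome mean, against 32.4 and 42.4 in control replicate 1. The region 7841 bp upstream was the 1 region of all 49 that was called in the 3 control and no 4xIOP list, with 33, 33 and 13 fragments. Over all regions 1.05% were called in all control and no 4xIOP list and 0.015% the other way round. No region of the 10 genes was of the latter kind.

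The 300 bases around the summits of 2 Bcl3 regions are shown from GRCm38.p6 on the plus strand, the gene-body region 6575 bp downstream because it held the most fragments in control replicate 1, and the region 18683 bp downstream because it holds 2 kB matches, in capitals. The first is chr7:19815592-19815891 and the second chr7:19803754-19804053.

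Bcl3 6575 bp downstream: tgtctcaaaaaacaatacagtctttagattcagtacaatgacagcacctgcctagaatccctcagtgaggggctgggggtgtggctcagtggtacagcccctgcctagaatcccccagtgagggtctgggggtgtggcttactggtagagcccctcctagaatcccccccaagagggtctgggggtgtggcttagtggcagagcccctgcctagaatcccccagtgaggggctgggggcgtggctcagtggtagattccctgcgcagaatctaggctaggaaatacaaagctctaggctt
Bcl3 18683 bp downstream: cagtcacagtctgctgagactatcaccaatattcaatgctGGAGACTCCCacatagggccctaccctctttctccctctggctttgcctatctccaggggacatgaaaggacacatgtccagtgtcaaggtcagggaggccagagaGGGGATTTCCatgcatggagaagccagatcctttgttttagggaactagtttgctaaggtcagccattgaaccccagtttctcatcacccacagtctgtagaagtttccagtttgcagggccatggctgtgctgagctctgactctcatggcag

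Of the first window 56.7% is masked as repeat in the reference, and a run of 29 bases occurs 2 times in it. Whether reads there aligned to more than 1 place was not tested. Over all regions the median masked share was 7.33%, and 5.73% of regions were masked over more than 50% of the window. The second region was called in control replicate 1 with 28 fragments and in 4xIOP replicate 3 with 23. In all, 2 of the 9 Bcl3 regions and 4 of the 49 regions of the 10 genes held a kB match around the summit, against 5.01% of all regions.

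The Bcl3 peaks were high but not steep. Among all marked promoters their heights stood at percentiles 96.5 and 96.8 in control replicates 1 and 2 and 92.9 in 4xIOP replicate 3. The local background around them was 10.3, 7.91 and 6.09 times the genome mean, at percentiles 98.7, 99.3 and 99.0. The fold, which divides the summit by this background, was therefore 3.11, 2.96 and 3.01 and stood at percentiles 19.3, 18.4 and 9.85 of all peaks of the list. In control replicate 3 the background at the gene-body regions was 1.52 and 1.63 times the mean. Keeping the 16195 peaks with the highest fold in each list left the Bcl3 promoter marked in 4xIOP replicate 3, whose whole list this is, and in no control list, where the weaker peaks were dropped.

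**Figure D3:**
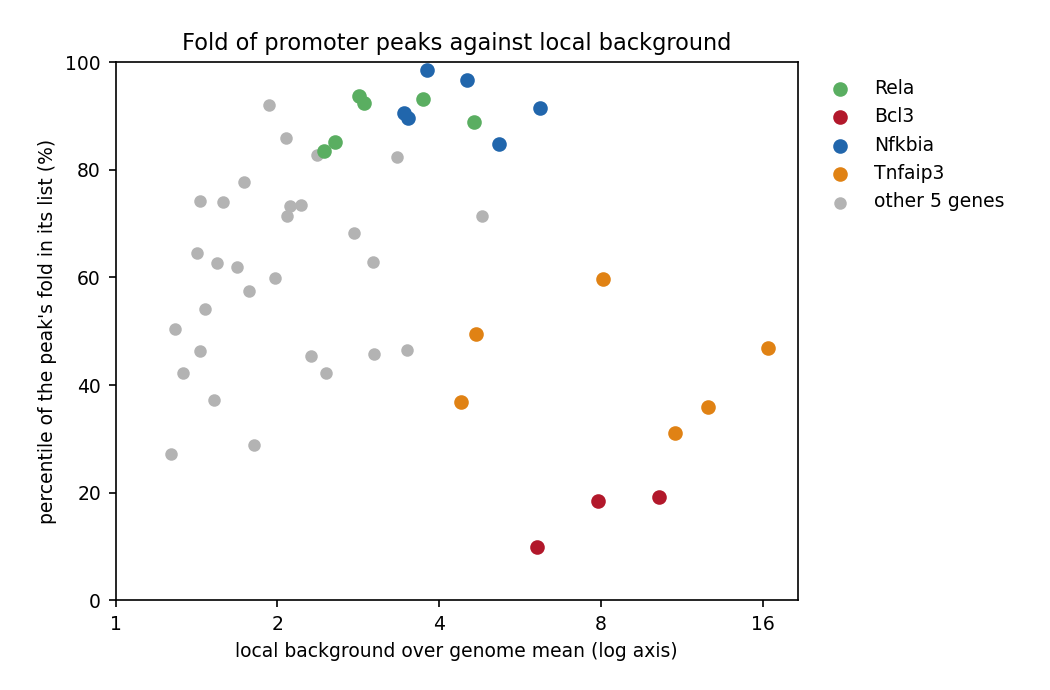
For the promoter peak with the most fragments of each gene in each list, the percentile of its fold among all peaks of the list is plotted against the local background over the genome mean (log axis). Nfkbia and Rela peaks lie at or above the percentile of 83.4, whereas the Bcl3 peaks lie at or below 19.3 with a background of 6.09 or more.

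The other genes with the lists of Bcl3 had lower peaks by height and steeper ones by fold. They were Nxf2, Gm31371, 4930467E23Rik, Nlrc5, Gm15319 and Muc1, the last named outside the rule so that all 6 are given. Their mean fold percentile ran from 26.0 at Muc1 to 59.9 at Nxf2, and that of Bcl3 was 15.8. Their mean height percentile among marked promoters ran from 16.6 to 45.4, and that of Bcl3 was 95.4. Gm31371, 4930467E23Rik and Gm15319 lie on chromosome 8 between 19729576 and 20363210. Nlrc5, a regulator of MHC class I genes, had 17 and 18 fragments in control replicates 1 and 2 and 27 in 4xIOP replicate 3.

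Among the inhibitors, Nfkbia, which encodes IkB alpha, was marked strongly in every list. The summit of its promoter held 73, 78 and 131 fragments in control and 77, 77 and 64 in 4xIOP. Its height stood at percentiles 96.1 to 98.8 of all marked promoters. The percentile of its fold in the list was 84.8, 89.7 and 91.5 in control and 96.7, 98.5 and 90.6 in 4xIOP. The fold itself was 5.99, 6.16 and 8.13 in control and 7.75, 8.60 and 6.62 in 4xIOP, and the groups overlapped. A second region in all 6 lists lay 11049 bp downstream, at chr12:55479985-55481598, between genes. It held 51, 41 and 74 fragments in control and 50, 74 and 27 in 4xIOP, and the groups overlapped.

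Nfkbib, which encodes IkB beta, shares its promoter with the divergent gene Sirt2, so its mark cannot be assigned to either. Its heights were 13.2, 9.76 and 26.7 in control and 15.4, 15.1 and 10.9 in 4xIOP. With a promoter limit of 1 kb Nfkbib was marked in 5 lists and not in 4xIOP replicate 2. Nfkbie, which encodes IkB epsilon, had 16 and 42 fragments in control replicates 1 and 3, no peak in control replicate 2, and 19, 16 and 26 in 4xIOP. Control replicate 2 had the highest mean background of all lists. At a −log10 q of at least 5 Nfkbie was kept in 3 lists.

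Tnfaip3 encodes A20, a ubiquitin-editing enzyme that ends NF-kB signalling, and had the tallest promoter by the median. In control replicate 2 Bcl3 and Nfkbia were taller, and in 4xIOP replicate 3 Nfkbia, Rela and Bcl3 were. Its main region, chr10:19014047-19015383, reached into an intron and held 82, 64 and 159 fragments in control and 80, 99 and 47 in 4xIOP. A second region 165 bp from the other start site was called in control replicate 3 with 98 fragments and in 4xIOP replicates 1 and 2 with 56 and 67. These are the lists in which the Bcl3 promoter was not marked. The local background at the main Tnfaip3 peak was 8.08, 4.69 and 16.4 times the genome mean in control and 11.0, 12.7 and 4.40 times in 4xIOP. It was highest in control replicate 3, followed by 4xIOP replicates 2 and 1. The background stood at percentiles 95.7 to 99.4 of all marked promoters and the fold at 31.1 to 59.6 of all peaks. Tnfaip3 was lost in control replicate 3 when 16195 of its 36509 peaks were kept by fold, which is a smaller share than in any other list.

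For the 7 promoters marked in all 6 lists, the mean height was lower in 4xIOP than in control, with log2 ratios from −0.43 at Rel to −0.0017 at Relb and a median of −0.20. The same direction was found at 97.4% of the 8669 coding promoters marked in all 6 lists, over which the median log2 ratio was −0.36. Both rest on control replicate 3. Without it 5 of the 7 genes were higher in 4xIOP (Nfkb1, Relb, Nfkbia, Nfkbib and Tnfaip3), Rela and Rel were lower, and the median log2 ratio was 0.23. Over the 8669 promoters it was then 0.086, with 33.8% lower in 4xIOP. The median of the 7 genes was −0.53 without control replicate 2, −0.31 without 4xIOP replicate 1 and −0.12 without 4xIOP replicate 3, where in the last case 4 were lower and 3 higher, and over the 8669 promoters it was −0.62, −0.48 and −0.21. The largest height at each of the 7 genes was in control replicate 3, the list whose median height over these 8669 promoters was 28.8, against 10.9 to 16.9 in the other five. Over all lists the means for Nfkbia were 36.5 ± 15.2 in control and 33.2 ± 7.20 in 4xIOP (SD, n = 3), and for Tnfaip3 they were 40.2 ± 22.9 and 34.9 ± 14.8. Both differences were smaller than the spread between lists.

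To compare the lists without their differences in scale, the highest fold of each region was ranked within its list and the ranks were tested with limma over the 10529 regions called in all 6 lists, which are 26.4% of all regions. Of these, 15 lie in the loci of the 10 genes. After Benjamini-Hochberg adjustment no region was higher (0%) or lower (0%) in 4xIOP. At an unadjusted p under 0.05 there were 334 regions (3.17%), and 1 of the 15. That was the Nfkbia promoter, whose normal score was higher in 4xIOP by 0.81 ± 0.32 (SE, limma, adjusted p = 0.9999). This direction turned when fragments over the mean background were used in place of the rank of the fold (−0.08), and the adjusted p ran from 0.79 to 1 over the alternatives. For the intron region of Nfkb2 the limma difference was −0.58 ± 0.32 (SE), which became −0.38 without 4xIOP replicate 3 and −0.87 with the same number of peaks in each list. The Relb promoter differed by 0.57 ± 0.30 (SE), which became 1.15 with the same number of peaks and 0.057 with fragments over the mean background. In limma all 15 regions of the 10 genes had an adjusted p of 0.9999, and 6 of them had a positive difference. Bcl3 was not in this test, since none of its regions was called in all 6 lists.

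**Figure D4:**
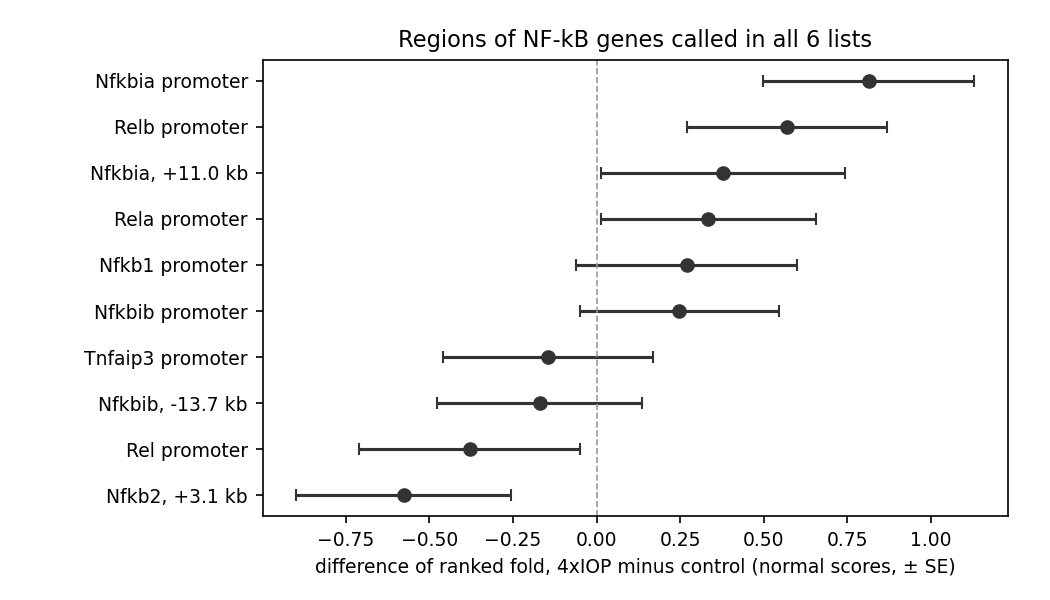
The difference in the normal score of the ranked fold between 4xIOP and control (point) with its standard error (bar) is plotted for the 10 regions of these genes that were called in all 6 lists and lie at their own promoters, in a gene body or in a flank, the Nfkbib promoter being shared with Sirt2. The Nfkbia promoter was highest at 0.81 and the Nfkb2 intron region lowest at −0.58, and no region passed the adjusted threshold.

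Over all loci of the 10 genes, 15 of the 49 regions were shared by all 6 lists and 15 belonged to 1 list, against 26.4% and 37.4% of all regions. Of the 15 called in 1 list, 11 were in control replicate 3, which also held 76.3% of all such regions. Control lists had 30, 23 and 41 regions in these loci and 4xIOP lists had 21, 23 and 24. The means were 31.3 ± 9.07 and 22.7 ± 1.53 (SD, n = 3), a difference of −8.67 within the spread of the controls. The 4xIOP mean was 0.723 of the control mean, and over all regions of the series this ratio was 0.711. The difference became −5.5 without control replicate 3, −4.33 without the Bcl3 locus and 0.33 with the same number of peaks in each list. The called length was 19.4, 16.8 and 27.1 kb in control and 13.4, 13.9 and 13.2 kb in 4xIOP. The difference of −7.62 kb became −4.62 kb without control replicate 3 and −2.81 kb when each list was given the same number of peaks. The groups did not overlap in called length, which was not set against the called length over all regions. This separation rested on Bcl3, whose peaks were known when the genes were chosen. Without its locus the lengths were 14.7, 13.0 and 25.8 kb in control and 13.4, 13.7 and 10.7 kb in 4xIOP, which overlap. Of the 49 regions, 16 lay at promoters of other genes, among them Hsp90ab1, Psd and Clasrp, and outside the promoters and bodies of the 10 genes.

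The rest of the pathway was compared by the same rule. Of the 10 kinases 9 were marked in all 6 lists, including Chuk, Ikbkb and Ikbkg, which form the kinase complex that acts on the inhibitors, and Map3k14 of the alternative pathway. Ikbke, an inducible kinase related to them, was marked in none. Of the 14 ubiquitin enzymes and other regulators 10 were marked in all 6 and 1, Tnip3, in none. Of the 17 receptors and adaptors 7 were marked in all 6 and 5 in none. The adaptors Myd88, Traf2, Traf6 and Ripk1 were in the former group, with Irak4, Traf3 and the receptor Ltbr. The receptors Tnfrsf1a, Cd40, Tlr2 and Tlr4 and the adaptor Tradd were in the latter.

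Of the 30 target genes, 7 were marked in all 6 lists (Csf1, Sod2, Ier3, Bcl2l1, Cflar, Lcn2 and Junb) and 17 in none, where all coding genes had 39.5% and 42.4%. The cytokines Tnf, Il1b and Il6, the chemokines Ccl2, Ccl5 and Cxcl10 and the adhesion genes Icam1, Vcam1 and Sele were without a peak in any list. No gene of these 4 lists was marked in all lists of one group and none of the other, and none had the lists of Bcl3.

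**Figure D5:**
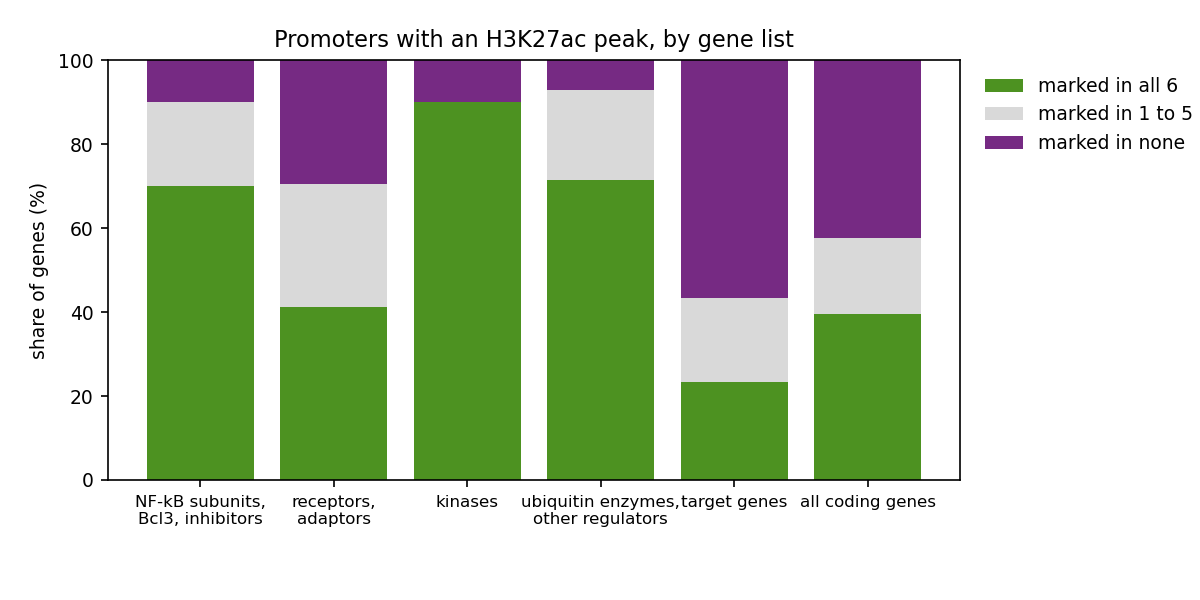
The share of genes whose promoter was marked in all 6 lists (green), in 1 to 5 (grey) or in none (purple) is plotted for the 10 genes, for 4 further gene lists of the pathway and for all coding genes. Kinases have 9 of 10 promoters marked in all 6 lists, target genes 7 of 30, and all coding genes 39.5%.

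Among the target genes, 3 were marked in the 3 control lists and in 4xIOP replicate 3, which 0.356% of all coding promoters were. They are Cebpd, a transcription factor of the acute phase response, Socs3, which restrains cytokine receptors, and Irf1, a regulator of interferon responses. Cebpd held 61, 63 and 14 fragments in control and 28 in 4xIOP replicate 3. Socs3 held 48, 49 and 21 in control and 50 in 4xIOP replicate 3. Irf1 held 20, 26 and 17 in control and 36 in 4xIOP replicate 3. None was called in 4xIOP replicates 1 and 2, and control replicate 3 was the lowest of the 4 marked lists for each of them, as it was in the Bcl3 gene body. The 3 higher lists of each gene, control replicates 1 and 2 and 4xIOP replicate 3, are again those that carry the name 4X_IOP. These 3 genes were chosen with their values in view.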

How the data were processed

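Peak lists of H3K27ac ChIP-seq, 1 per retina, were analysed. The authors deposited for each peak an interval, a summit, a fold ratio of fragments to local background, a −log10 p-value, a −log10 q-value and a score, which was not used. The submitters' processing notes name STAR 2.7.8a, MACS2, HOMER, edgeR, bedtools 2.29.2 and mm10 without their roles. Of each list, at least 99.99% of peaks gave whole summit fragments and a local background (window 10 kb) from fold and p, within 0.001 of the deposited −log10 p. The lowest background of a list was its genome mean. The lowest deposited −log10 q was 1.31. The study's methods give the depth aimed for, and the depth reached in each list is unknown beyond these values.

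Peaks were joined to GENCODE vM21 genes (GRCm38) with at least 1 bp of overlap, and merged over the 6 lists into regions. Ranks of fold were tested with limma 3.58.1 in R 4.3.3, with Benjamini-Hochberg adjustment at 0.05, on a script tested on simulated data. Groups and replicate numbers came from the labels. Nothing ties a replicate number to an animal, so p-values measure the spread between these samples, which may be technical. The genes and lists were chosen with earlier results of these data known. All 10 genes are named, with every Bcl3 region. Of genes with the lists of Bcl3, the 5 with the highest mean fold percentile are named, and the remaining 1 was added after its values were seen. Genes of the pathway lists are named as examples, and other genes where their TSS lies under a peak of these loci. Sequences were read from RefSeq tables and GRCm38.p6. Alternatives were stricter peaks, equal numbers of peaks, other windows, other limma scales, terms and blocks, and leaving out each list.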

Additional observations from a re-analysis of the deposited data

How the results depend on the processing

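With 3 lists a group and no read counts, weak peaks fall below detection, and the carried names that conflict with 4 labels could not be resolved. With the same number of peaks kept in each list, the difference in promoters marked became 1, in regions −8.67 became 0.33, in called length −2.81 kb, and exclusive promoters became 50 for control and 16 for 4xIOP. Promoters marked in 4xIOP alone, 0 at first, became 1 with the summit in the promoter and 4 over all annotated genes. Within the longer and the shorter fragment-length class, split at a shortest peak of 200 bp, the difference in promoters marked was −1 and 1. Leaving out each list gave 82 to 277 control-exclusive promoters (277 without control replicate 2) and 0 to 36 4xIOP-exclusive ones (36 without control replicate 3). It gave −0.33 to 0.33 promoters, −12.8 to −5.5 regions and −9.76 to −4.62 kb. limma called 0 regions in each direction under all 12 alternatives, with 8 (fragments over mean background) to 701 (without 4xIOP replicate 3) at p under 0.05. With fragments over mean background the limma differences turned to −0.13 at Nfkb1, −0.31 at Rela, −0.078 at Nfkbia and −0.15 at Nfkbib. With ranked fragments they turned to −0.025 at Rela, 0.12 at the Nfkbib region 13717 bp upstream and 0.067 at Tnfaip3, whose values with each list left out ran from −0.37 to 0.020, the latter without control replicate 1. The cause was not tested. The deviations of same-numbered lists had correlations of −0.02, −0.06 and −0.15. These cannot decide whether same-numbered lists came from the same animal, since differences between whole lists also enter them. With the replicate block the limma calls remained 0, and the differences within same-numbered lists were 0 promoters, −8.67 regions and −7.62 kb. Chosen after seeing the data, leaving out each list turned the log2 height ratio at 5 of the 7 shared promoters without control replicate 3 (up to 0.32 at Relb), at 3 without 4xIOP replicate 3 and at 1 without 4xIOP replicate 2, and without the Bcl3 locus the differences were −4.33 regions and −5.20 kb.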
